A study of Homo sapiens with 8 samples.

Results

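The genes described here are 31 known transcriptional targets of the tumour suppressor p53, listed by name with no threshold on a measured value. All 31 had a row among the 17166 genes of the table, and 30 of them averaged at least 1 FPKM (fragments per kilobase of transcript, scaled to the mapped fragments of the library) and were among the 11712 genes tested. The RNA came from HCT116, a human colorectal cancer cell line, with a stably introduced doxycycline-inducible short hairpin RNA (shRNA) against the homeobox gene HOXB8. Each of 2 hairpins, sh1 and sh2, gave its own line, and each line was sampled after 72 hours in medium with 1 ug/ml doxycycline (dox) or with none. That made 4 groups of 2 libraries, called sh1-no-dox, sh1-dox, sh2-no-dox and sh2-dox, in which all 8 libraries carried a HOXB8 hairpin. No library analysed here had dox without a HOXB8 hairpin, so an effect of the drug and an effect of lower HOXB8 cannot be told apart. How many clones make up a line is not given in the sources used here.

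p53 is a transcription factor that is held low in unstressed cells, chiefly by the ubiquitin ligase MDM2, and is stabilised after DNA damage and other stresses. It then binds response elements in DNA and raises genes that stop the cell cycle, repair DNA, alter metabolism or start cell death, among them MDM2 itself, which closes a negative feedback loop. The cyclin-dependent kinase inhibitor p21, made from CDKN1A, carries much of the arrest: through it the DREAM repressor complex shuts down genes of mitosis and DNA replication. HCT116 cells are widely used to study these genes.

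RefSeq promoter windows, from 250 bases before to 50 bases after an annotated gene start (GRCh38.p14), were found for 24 of the 31 members, which had 38 windows; the rest were GADD45A, TNFRSF10A, TNFRSF10B, RRM2B, FBXO22, PHLDA3 and TP53INP1. The p53 decamer, the palindromic unit that a p53 response element holds as a pair, was searched on both strands with no mismatch. It occurred in 6.63% of all 35116 windows and in 6 of the 38 member windows, those of AEN, DDB2, FAS, FDXR, PLK2 and SESN1. A pair of decamers at most 13 bases apart occurred in 10 of all windows, or 0.0285%, and DDB2 was the only member with one. The cAMP response element TGACGTCA, which overlapped no decamer in the windows shown, occurred in 1.85% of all windows and in those of EPHA2 and PPM1D. The windows of DDB2, FDXR and PLK2 are shown because they hold a decamer and because these genes differed between groups, that of EPHA2 for its TGACGTCA, and that of CDKN1A, which had neither motif there, because it was the most abundant member; the best known p53 elements of CDKN1A lie further upstream than this window. The motifs were chosen with values of these genes known, so the matches only describe the sequences. In transcript direction these windows are chr11:47214724-47215023 on the plus strand for DDB2, chr17:74872945-74873244 on the minus strand for FDXR, chr5:58460037-58460336 on the minus strand for PLK2, chr1:16156020-16156319 on the minus strand for EPHA2 and chr6:36678464-36678763 on the plus strand for CDKN1A. Capitals mark the motifs: both decamers in DDB2, 1 base apart, the single decamer in FDXR and in PLK2, and TGACGTCA in EPHA2.
DDB2: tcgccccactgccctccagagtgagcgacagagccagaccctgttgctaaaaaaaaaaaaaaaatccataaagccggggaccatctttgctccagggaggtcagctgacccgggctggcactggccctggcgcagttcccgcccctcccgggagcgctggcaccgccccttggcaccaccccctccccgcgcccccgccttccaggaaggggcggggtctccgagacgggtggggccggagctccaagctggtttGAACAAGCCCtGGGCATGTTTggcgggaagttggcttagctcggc
FDXR: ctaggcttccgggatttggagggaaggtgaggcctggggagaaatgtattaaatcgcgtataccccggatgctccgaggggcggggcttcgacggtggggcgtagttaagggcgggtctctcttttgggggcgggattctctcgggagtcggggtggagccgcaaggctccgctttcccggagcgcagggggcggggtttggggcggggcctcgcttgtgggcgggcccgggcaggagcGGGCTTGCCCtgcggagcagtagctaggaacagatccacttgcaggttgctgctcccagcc
PLK2: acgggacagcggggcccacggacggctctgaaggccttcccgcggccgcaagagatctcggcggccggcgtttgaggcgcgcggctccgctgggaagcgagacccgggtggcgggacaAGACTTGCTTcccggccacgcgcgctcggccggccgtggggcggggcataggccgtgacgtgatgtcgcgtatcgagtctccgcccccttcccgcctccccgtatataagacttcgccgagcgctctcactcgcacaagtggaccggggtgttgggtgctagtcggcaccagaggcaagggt
EPHA2: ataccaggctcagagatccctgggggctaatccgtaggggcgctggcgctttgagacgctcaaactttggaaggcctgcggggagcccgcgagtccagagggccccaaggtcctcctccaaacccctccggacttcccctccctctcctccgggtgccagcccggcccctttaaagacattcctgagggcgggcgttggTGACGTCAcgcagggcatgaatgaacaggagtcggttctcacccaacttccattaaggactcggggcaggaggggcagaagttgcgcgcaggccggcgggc
CDKN1A: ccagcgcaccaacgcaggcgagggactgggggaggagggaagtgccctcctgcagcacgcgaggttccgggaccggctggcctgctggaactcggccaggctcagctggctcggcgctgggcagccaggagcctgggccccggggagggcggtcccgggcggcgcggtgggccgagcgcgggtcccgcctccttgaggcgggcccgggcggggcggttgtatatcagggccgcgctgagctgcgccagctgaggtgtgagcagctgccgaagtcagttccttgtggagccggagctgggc

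The FPKM columns summed to between 440063 and 446889 and listed between 15592 and 15762 genes above 0, and the read depth is unknown. Libraries of the same group correlated across genes at r = 0.996 to 0.998, and those of different groups at 0.992 to 0.997. HOXB8, the target of the hairpins, read 20.8 and 20.4 FPKM without dox and 6.54 and 5.74 with dox in the sh1 line, and 17.3 and 18.4 without dox and 7.39 and 6.41 with dox in the sh2 line. All 4 libraries with dox were below all 4 without, and the mean fell by 66.1%; without dox the sh2 pair was below the sh1 pair. Of 12 epithelial markers listed, 10 averaged at least 1 FPKM. After dox 5 of these rose (EPCAM, CDH1, ELF3, CLDN4 and CLDN7, by 0.13 to 0.27 on the log2 scale), 2 fell (KRT8 by 0.24 and KRT18 by 0.29) and 3 did not pass. The summed level, of which the keratins KRT8, KRT18 and KRT19 make up most, was 3475 to 3542 FPKM in sh1-no-dox and 2856 to 3106 in the other groups, so it follows the keratins and not the list. The part of these markers in the results that follow was not tested. Markers of other cell types stayed low. CD3E and CD14 averaged at most 0.10 FPKM, the endothelial sum was at most 0.44 and the fibroblast sum, nearly all COL1A1, at most 8.46. The immune sum, nearly all CD68, LYZ and PTPRC, was 11.99 to 14.88 FPKM without dox and 13.93 to 14.95 with dox, and its part was not tested either. In bulk RNA such as this, fewer cells of a type and less RNA per cell cannot be told apart.

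CDKN1A was the most abundant member and the only one above 100 FPKM, with 222 to 264 FPKM over the 8 libraries. Another 13 members averaged 20 to 100 FPKM, led by EPHA2, FDXR and TNFRSF10B, the death receptor gene for DR5. A further 10 averaged 10 to 20 FPKM, and 6 averaged 1 to 10 FPKM, namely DRAM1, TP53INP1, SESN1, ZMAT3, BTG1 and FAS. SPATA18, needed for the repair or removal of damaged mitochondria, was listed at 0 in every library except sh2-dox replicate 1, where it read 0.02 FPKM, and was not tested. The tested members just above the 1 FPKM limit were FAS and BTG1, the lowest value of either being 3.97 FPKM, and SPATA18 was the only member under it.

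**Figure D1:**
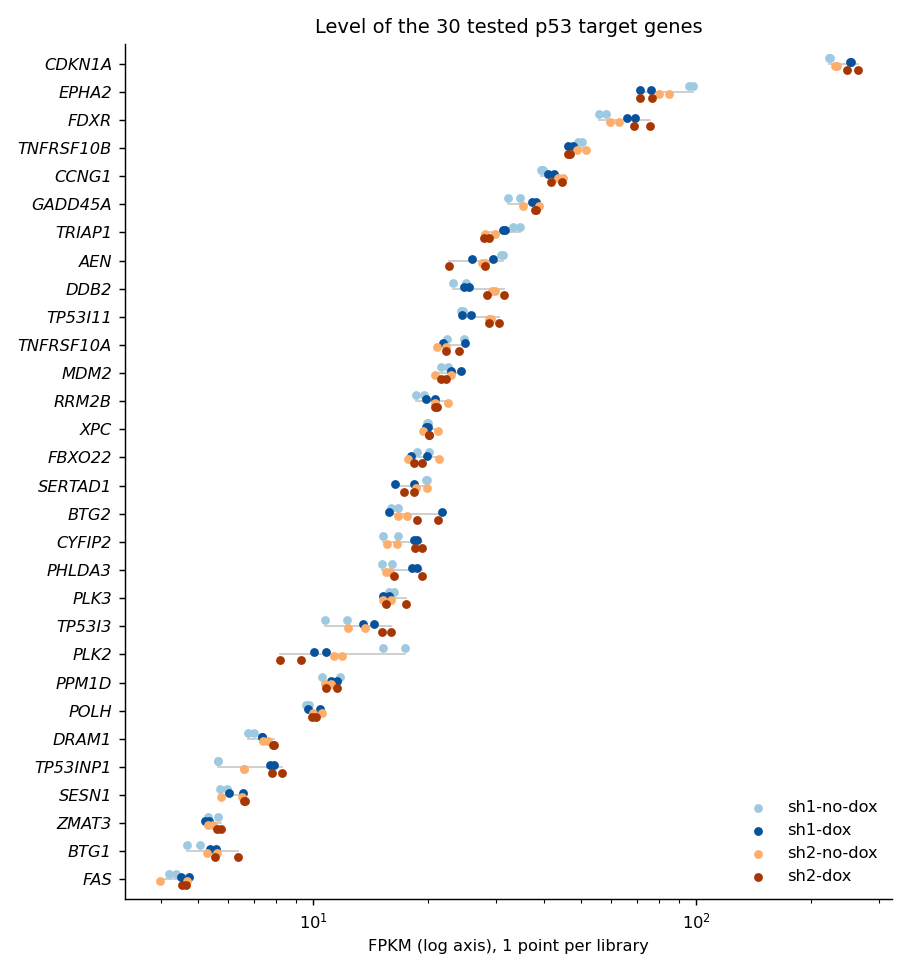
FPKM of the 30 tested p53 target genes in each of the 8 libraries (log axis), ordered by mean level. Each point is 1 library, coloured by group; CDKN1A lies above 200 FPKM in every library and FAS, the lowest, between 3.97 and 4.75.

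Which p53 targets differed after dox was asked first with both lines averaged. Of the 30 tested members 6 rose, CDKN1A, TP53INP1, TP53I3, FDXR, CYFIP2 and PHLDA3, and 3 fell, PLK2, EPHA2 and SERTAD1, at an adjusted p under 0.05 in limma. Among all 11712 genes 16.3% passed that threshold, 10.1% as higher and 6.2% as lower, while 9 of 30 is 30%. The changes ran from a fall of 31.5% to a rise of 29.6%. The other 21 members did not pass. At an unadjusted p under 0.05 there were 14 of the 30 members, beside 3767 of the 11712 genes. On the log2(FPKM + 1) scale the members' median difference was 0.04, beside 0.02 over all genes. Of the members 22 were above 0 and 8 below, beside 6682 and 5030 of all tested genes. In 9 members the 4 dox libraries did not overlap the 4 without dox, 5 higher and 4 lower, beside 17.1% of all genes, 10.2% higher and 6.87% lower. The 2 libraries of a group are repeats per the labels. The p-values rest only on the spread between such repeats, pooled over the 4 groups and moderated by the spread of other genes of like level. With 1 library left out, the number of members and the share of all genes past the threshold both moved. That share fell without any single library other than sh2-dox replicate 1, and rose without that one. The split of all called genes turned on the scaling, 61.9% of them higher as deposited, 50.3% after quantile normalization and 43.4% with TMM factors, while the members gave 6 higher and 3 lower, 6 and 3, and 6 and 4.

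**Figure D2:**
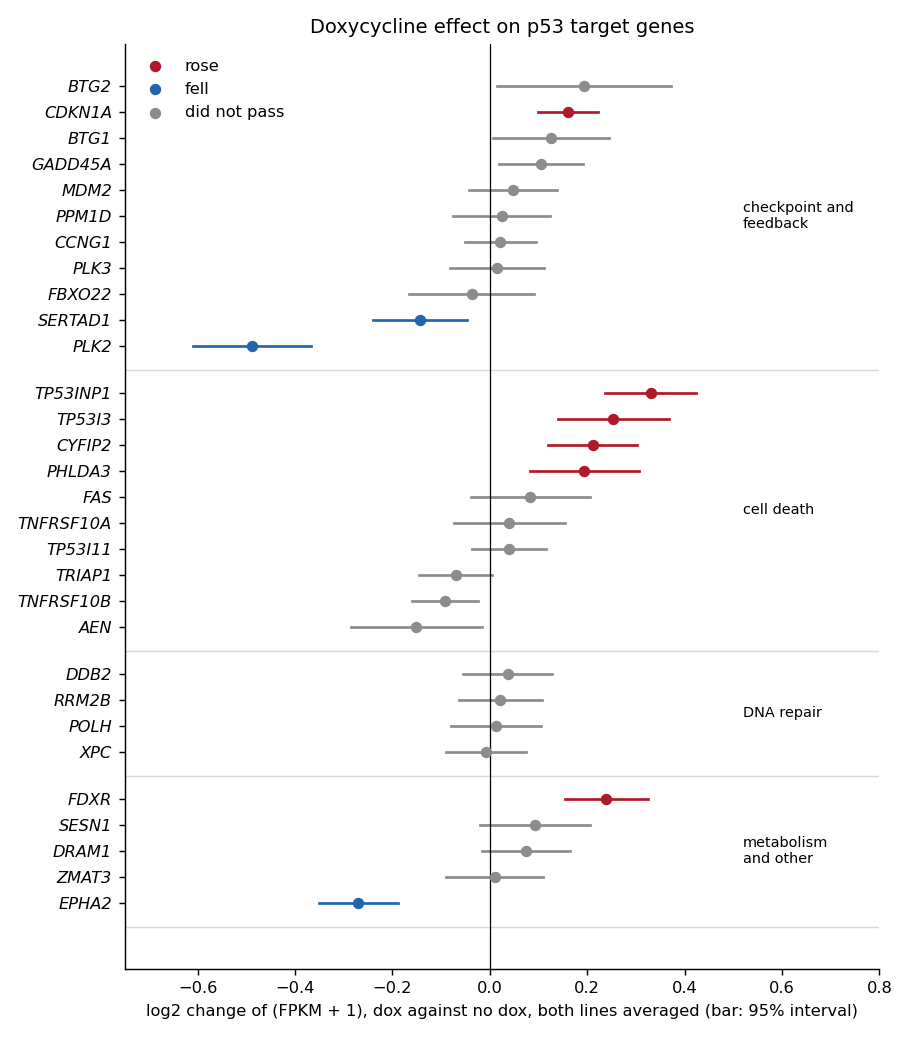
Dox effect averaged over both lines on log2(FPKM + 1) for the 30 tested members, grouped by role. Points are estimates and bars 95% intervals; red marks genes that rose and blue those that fell at adjusted p under 0.05, with TP53INP1 the highest at 0.33 and PLK2 the lowest at -0.49.

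The checkpoint and feedback group had 11 members, of which CDKN1A rose, PLK2 and SERTAD1 fell, and 8 did not pass, beside the same 10.1% and 6.2% of all genes. CDKN1A (Entrez 1026) read 223 and 222 FPKM without dox and 253 and 253 with dox in the sh1 line, and 231 and 233 without dox and 248 and 264 with dox in the sh2 line. Every dox library was above every library without it, so the groups by state did not overlap. The mean rose by 11.9%, with means of 227 ± 5.44 without dox and 254 ± 6.74 with dox (FPKM, SD, n = 4 libraries each), a log2 change of 0.16 (95% interval 0.10 to 0.22) with adjusted p = 0.00497 in limma. PLK2 (Entrez 10769), a kinase of centriole duplication that is also known as serum-inducible kinase, read 17.4 and 15.3 FPKM without dox and 10.8 and 10.0 with dox in the sh1 line, and 11.9 and 11.3 without dox and 9.29 and 8.17 with dox in the sh2 line. The sh1-no-dox pair stood highest, the sh2-no-dox pair lay next, and all dox libraries were below both. PLK2 fell by 31.5%, with means of 14.0 ± 2.85 without dox and 9.57 ± 1.11 with dox (FPKM, SD, n = 4 libraries each), a log2 change of -0.49 (95% interval -0.61 to -0.37) and adjusted p = 5.45e-04. SERTAD1 (Entrez 29950), which binds CDK4 and co-activates E2F, read 19.8 and 19.7 FPKM without dox and 18.3 and 16.3 with dox in the sh1 line, and 19.8 and 18.6 without dox and 17.3 and 18.3 with dox in the sh2 line. Its states did not overlap, but the lowest library without dox, at 18.6 FPKM, was close to the highest ones with it, at 18.3 FPKM. SERTAD1 fell by 9.90%, a log2 change of -0.14 (95% interval -0.24 to -0.05) at adjusted p = 0.0486. That call ended without any single library other than sh1-dox replicate 1 (adjusted p = 0.0555 to 0.160), and also with no filter on low values (0.105), no trend in the moderation (0.0763) or no term for the line (0.0633).

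MDM2 (Entrez 4193), the ligase that targets p53 for destruction, read 22.5 and 21.6 FPKM without dox and 22.9 and 24.3 with dox in the sh1 line, and 22.9 and 20.8 without dox and 22.2 and 21.5 with dox in the sh2 line. States overlapped, and its log2 difference was 0.05 (95% interval -0.04 to 0.14) with adjusted p = 0.447, an interval that leaves out differences above 0.14. PPM1D, the phosphatase that switches off the damage response, differed by 0.02 (95% interval -0.08 to 0.12), and CCNG1, cyclin G1, by 0.02 (95% interval -0.05 to 0.09). FBXO22, an F-box protein, and PLK3, a stress-responsive kinase, differed by -0.04 and 0.01. GADD45A, a growth arrest and DNA damage gene, gave 0.10 (95% interval 0.02 to 0.19) with adjusted p = 0.0929. The antiproliferative pair BTG1 and BTG2 gave 0.13 (95% interval 0.01 to 0.24) and 0.19 (95% interval 0.01 to 0.37), with adjusted p = 0.136 and 0.128. The intervals printed for MDM2, PPM1D and CCNG1 included 0. BTG2 passed without sh1-dox replicate 2.

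Of 10 members of the cell death group 4 rose and none fell, beside 10.1% higher and 6.2% lower among all genes, with a median log2 difference of 0.06. TP53INP1 (Entrez 94241), a stress protein that promotes p53 phosphorylation and autophagy, read 5.64 and 5.66 FPKM without dox and 7.92 and 7.70 with dox in the sh1 line, and 6.60 and 6.58 without dox and 7.82 and 8.29 with dox in the sh2 line. All dox libraries were above all others, and without dox the sh2 pair was above the sh1 pair. It rose by 29.6%, with means of 6.12 ± 0.543 without dox and 7.93 ± 0.255 with dox (FPKM, SD, n = 4 libraries each), a log2 change of 0.33 (95% interval 0.24 to 0.42) and adjusted p = 0.00115. TP53I3 (Entrez 9540), also known as PIG3, a quinone oxidoreductase linked to reactive oxygen, read 10.7 and 12.2 FPKM without dox and 13.5 and 14.4 with dox in the sh1 line, and 12.4 and 13.6 without dox and 16.0 and 15.2 with dox in the sh2 line. Its states overlapped, because sh2-no-dox replicate 2 was above sh1-dox replicate 1. It rose by 20.6%, a log2 change of 0.25 (95% interval 0.14 to 0.37) at adjusted p = 0.0101. CYFIP2 (Entrez 26999), part of the WAVE actin regulator and a p53-induced death gene, read 15.2 and 16.7 FPKM without dox and 18.7 and 18.4 with dox in the sh1 line, and 15.6 and 16.6 without dox and 18.4 and 19.2 with dox in the sh2 line. The dox libraries were all higher, and the lines lay close together within each state. CYFIP2 rose by 16.7%, a log2 change of 0.21 (95% interval 0.12 to 0.30) with adjusted p = 0.00885. PHLDA3 (Entrez 23612), a repressor of AKT signalling, read 15.2 and 16.1 FPKM without dox and 18.2 and 18.7 with dox in the sh1 line, and 15.8 and 15.5 without dox and 19.2 and 16.2 with dox in the sh2 line. The lowest dox library, sh2-dox replicate 2, was just above the highest without dox, sh1-no-dox replicate 2. PHLDA3 rose by 15.5%, a log2 change of 0.19 (95% interval 0.08 to 0.31) at adjusted p = 0.0269. Its call ended without sh1-no-dox replicate 1 (0.0979), sh1-dox replicate 2 (0.0846), sh2-no-dox replicate 1 (0.0744) or sh2-no-dox replicate 2 (0.0813), with no filter on low values (0.0868) and with no trend in the moderation (0.0516).

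**Figure D3:**
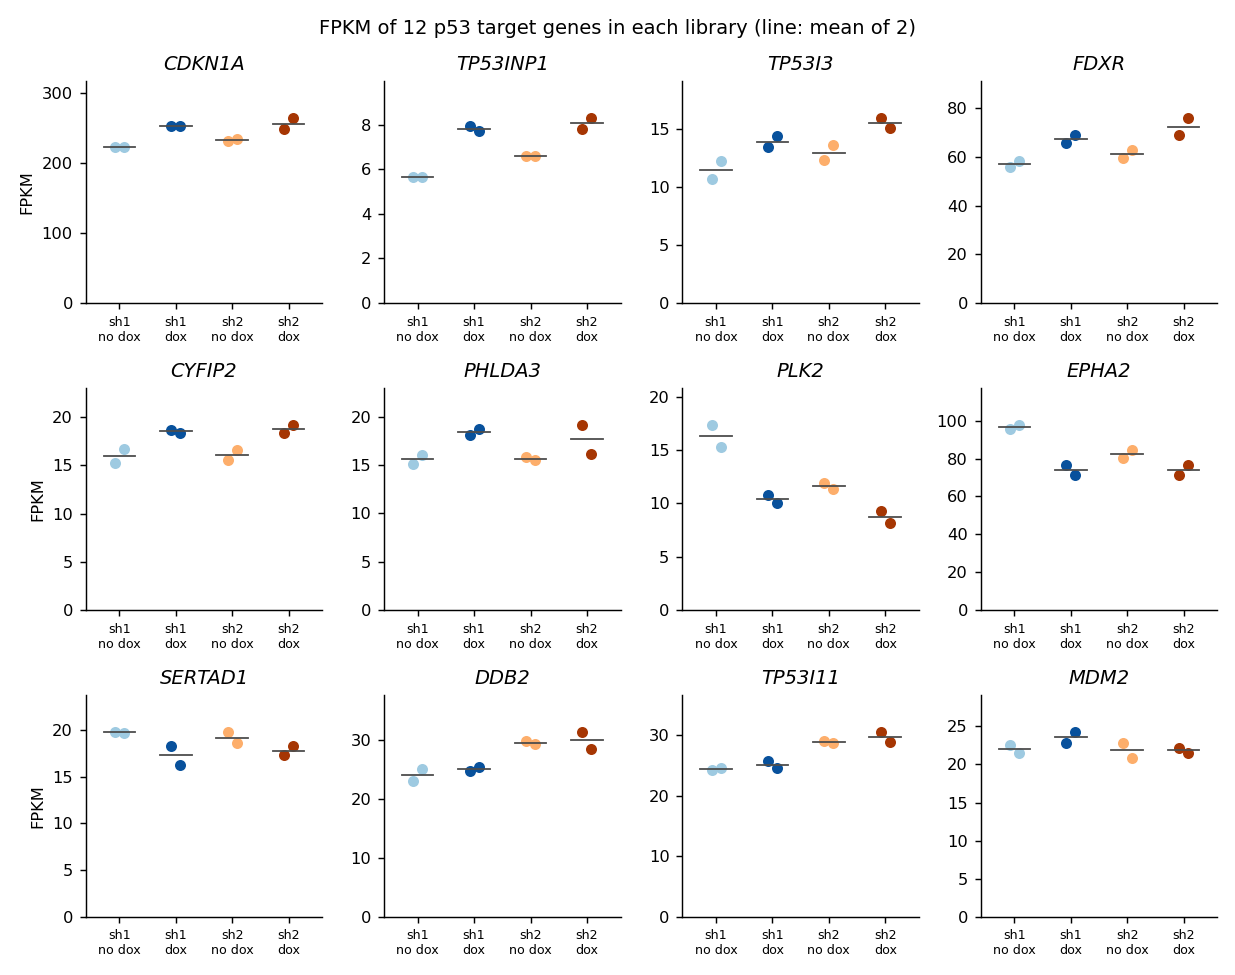
FPKM in each library for 12 members: the 9 that changed after dox in the averaged comparison, DDB2 and TP53I11, which differed between the untreated lines, and MDM2. Points are single libraries and short lines the means of 2; the dox libraries of CDKN1A (248 to 264 FPKM) lie above those without dox (222 to 233), while those of PLK2 (8.17 to 10.8) lie below (11.3 to 17.4).

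The remaining 6 cell death members did not pass, and the death receptors FAS, TNFRSF10A and TNFRSF10B were among them. FAS differed by 0.08 (95% interval -0.04 to 0.21) and TNFRSF10A, the receptor DR4, by 0.04 (95% interval -0.07 to 0.15). TNFRSF10B read 49.0 and 50.4 FPKM without dox and 47.7 and 46.4 with dox in the sh1 line, and 51.4 and 49.0 without dox and 46.8 and 46.2 with dox in the sh2 line. All dox libraries were below all others, yet the log2 difference of -0.09 (95% interval -0.16 to -0.02) had adjusted p = 0.0636 and it passed with TMM factors. AEN, an apoptosis-enhancing nuclease, gave -0.15 (95% interval -0.29 to -0.02) and passed without sh2-dox replicate 1. TRIAP1, a small survival protein of the mitochondria, gave -0.07 (95% interval -0.14 to 0.01), and TP53I11 gave 0.04 (95% interval -0.04 to 0.12).

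None of the 4 DNA repair and nucleotide supply genes passed, beside 16.3% of all genes. Their log2 differences ran from -0.01 to 0.04. DDB2 and XPC, which recognise damaged DNA in nucleotide excision repair, gave 0.04 (95% interval -0.06 to 0.13) and -0.01 (95% interval -0.09 to 0.07). POLH, the translesion polymerase eta, gave 0.01 (95% interval -0.08 to 0.10), and RRM2B, the p53-induced ribonucleotide reductase subunit, gave 0.02 (95% interval -0.06 to 0.11). These intervals all included 0.

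In the last group, of metabolism, mitochondria, autophagy, RNA stability and receptors, FDXR rose, EPHA2 fell and 3 of the 5 tested genes did not pass. Among all genes 10.1% were higher and 6.2% lower. FDXR (Entrez 2232), ferredoxin reductase, which passes electrons to mitochondrial cytochromes P450 and to iron-sulphur cluster assembly, read 55.7 and 58.2 FPKM without dox and 65.8 and 69.1 with dox in the sh1 line, and 59.7 and 62.8 without dox and 69.0 and 76.0 with dox in the sh2 line. Each dox library was above every library without dox. Its mean rose by 18.4%, with means of 59.1 ± 2.95 without dox and 70.0 ± 4.28 with dox (FPKM, SD, n = 4 libraries each), a log2 change of 0.24 (95% interval 0.15 to 0.32) and adjusted p = 0.00356. EPHA2 (Entrez 1969), a receptor tyrosine kinase for ephrins, read 95.6 and 97.8 FPKM without dox and 76.4 and 71.3 with dox in the sh1 line, and 80.1 and 84.7 without dox and 71.2 and 76.7 with dox in the sh2 line. All dox libraries were below all others, and the sh1-no-dox pair stood above every other library. EPHA2 fell by 17.5%, with means of 89.6 ± 8.52 without dox and 73.9 ± 3.05 with dox (FPKM, SD, n = 4 libraries each), a log2 change of -0.27 (95% interval -0.35 to -0.19) and adjusted p = 0.00154. SESN1, a brake on mTORC1, gave 0.09 (95% interval -0.02 to 0.21), DRAM1, a lysosomal regulator of autophagy, 0.07 (95% interval -0.02 to 0.16), and ZMAT3, an RNA-binding protein, 0.01 (95% interval -0.09 to 0.11). For CDKN1A, TP53I3, TP53INP1, FDXR, PLK2, EPHA2 and CYFIP2 the averaged call was kept in all 16 alternatives, with adjusted p of at most 0.0488.

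Some members share exon bases with another annotated gene, and no strand-specific counting is stated, so reads there cannot be assigned with certainty. In GENCODE v29 the largest share with any one gene was 23.8% for XPC, 19.1% for PHLDA3, 16.2% for FBXO22 and 10.4% for BTG1. It was 9.01% for TNFRSF10A, 8.93% for FAS, 7.09% for SESN1 and 5.91% for MDM2. For CDKN1A, TP53I3, CYFIP2 and TP53I11 it was 4.79%, 3.46%, 2.14% and 1.01%. TP53INP1, FDXR, PLK2, EPHA2, SERTAD1 and DDB2 had none listed.

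Taken line by line, with 2 libraries against 2, CDKN1A, TP53INP1 and FDXR rose and PLK2 and EPHA2 fell in the sh1 line, 5 of 30 beside 6.27% of all genes (3.71% higher and 2.56% lower). In the sh2 line FDXR rose and PLK2 fell, 2 of 30 beside 2.54% of all genes (1.38% higher and 1.15% lower). PLK2 fell by 36.2% in sh1 and by 24.8% in sh2, with log2 changes of -0.60 ± 0.08 (SE) at adjusted p = 0.00253 and -0.38 ± 0.08 (SE) at adjusted p = 0.0355. FDXR gave 0.24 ± 0.05 (SE) and 0.24 ± 0.05 (SE), with adjusted p = 0.0311 and 0.04996, the second right at the threshold. CDKN1A gave 0.18 ± 0.04 (SE) at adjusted p = 0.0258 in sh1 and 0.14 ± 0.04 (SE) at adjusted p = 0.0918 in sh2. TP53INP1 gave 0.41 ± 0.06 (SE) at adjusted p = 0.00509 and 0.25 ± 0.06 (SE) at adjusted p = 0.0535. EPHA2 gave -0.39 ± 0.05 (SE) at adjusted p = 0.00323 and -0.16 ± 0.05 (SE) at adjusted p = 0.142.

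The difference of the dox effects, sh2 minus sh1, was tested itself, and 0 of 30 members passed in limma, beside 0% of all genes. At an unadjusted p under 0.05 there were 1 member, EPHA2, and 566 of the 11712 genes. EPHA2 differed by 0.23 (95% interval 0.07 to 0.39) on the log2 scale, with an adjusted p of 0.992. PLK2 differed by 0.22 (95% interval -0.02 to 0.46), TP53INP1 by -0.15 (95% interval -0.34 to 0.03), CDKN1A by -0.04 (95% interval -0.17 to 0.08) and FDXR by 0.00 (95% interval -0.17 to 0.17). These wide intervals, from 2 libraries a group, do not show that the lines responded alike. The calls in single lines moved with single libraries, and so did the share of all genes called. In sh1 that share was lower without any single sh1 or sh2-no-dox library, and higher without either sh2-dox library. In sh2 it was lower without any single library other than sh2-dox replicate 1. With no filter the share was 0.903% in sh1 and 0.204% in sh2, and with no trend 3.24% and 0.768%. In sh1 the calls of CDKN1A and FDXR ended without either sh1-no-dox library or either sh1-dox library (adjusted p = 0.0967 to 0.161 for CDKN1A and 0.0659 to 0.202 for FDXR), with TMM factors (0.0688 and 0.0671), with no filter on low values (0.0701 and 0.101) and with no trend (0.0829 and 0.0756), and that of TP53INP1 ended without sh1-no-dox replicate 1 (0.0503). PHLDA3 passed in sh1 without either sh2-dox library, and CDKN1A passed in sh2 without sh2-dox replicate 1. In sh2 the FDXR call ended without any single library other than sh2-dox replicate 1 (0.0620 to 0.317), and that of PLK2 without sh2-no-dox replicate 1 (0.252), sh2-no-dox replicate 2 (0.112) or sh2-dox replicate 2 (0.149). Both sh2 calls also ended with no filter (0.145 for FDXR and 0.137 for PLK2) and no trend (0.122 and 0.0857), and that of FDXR with quantile normalization (0.0788), TMM factors (0.0740) and a pseudocount of 0.1 (0.0501).

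**Figure D4:**
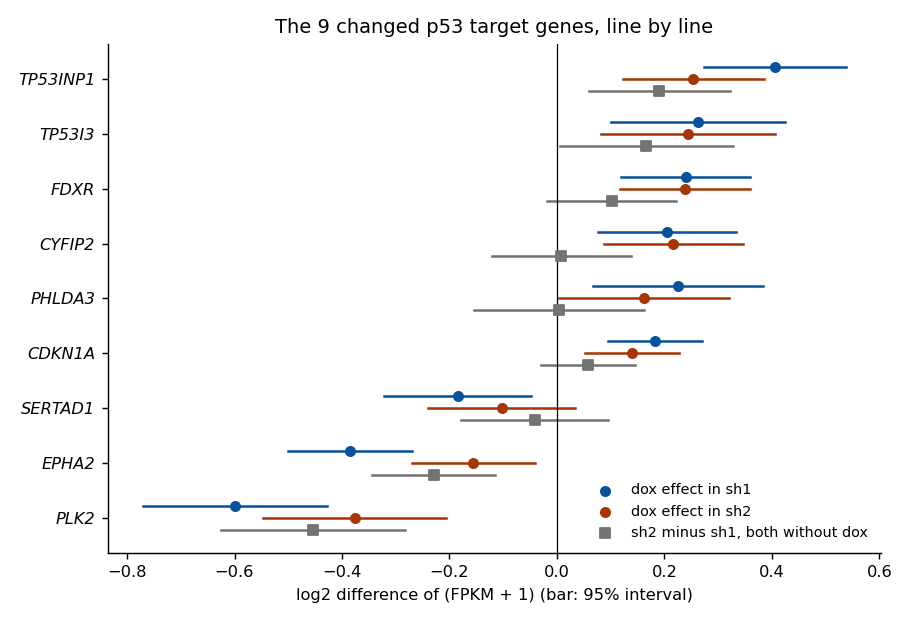
For the 9 members that changed in the averaged comparison, log2(FPKM + 1) differences with 95% intervals: dox effect in sh1, dox effect in sh2, and sh2 minus sh1 without dox. PLK2 lies at -0.60 in sh1 and -0.38 in sh2, and EPHA2 at -0.39 and -0.16, while FDXR has 0.24 in both lines.

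The lines also differed in some of these genes where no dox was given. Without dox, DDB2 and TP53I11 were higher and PLK2 lower in sh2 than in sh1, 3 of 30 members beside 1.45% of all genes (0.828% higher and 0.623% lower). DDB2 (Entrez 1643) read 23.1 and 25.1 FPKM without dox and 24.7 and 25.5 with dox in the sh1 line, and 29.8 and 29.3 without dox and 31.4 and 28.5 with dox in the sh2 line. The sh2 libraries were above the sh1 libraries in both states, by 22.5% without dox, with a log2 difference of 0.28 ± 0.06 (SE) at adjusted p = 0.0460. TP53I11 (Entrez 9537), a p53-inducible gene also known as PIG11, read 24.3 and 24.7 FPKM without dox and 25.8 and 24.5 with dox in the sh1 line, and 29.1 and 28.7 without dox and 30.6 and 28.8 with dox in the sh2 line. It too was higher in sh2 in both states, by 18.0% without dox, a log2 difference of 0.23 ± 0.05 (SE) at adjusted p = 0.0498. PLK2 was lower in sh2-no-dox than in sh1-no-dox, by -0.45 ± 0.08 (SE) at adjusted p = 0.0217. TRIAP1 and EPHA2 gave -0.22 ± 0.05 (SE) and -0.23 ± 0.05 (SE), with adjusted p = 0.0553 and 0.0604, and both passed with TMM factors or without either sh2-dox library. The sh1-no-dox libraries serve both in this comparison and in the dox effect of sh1, so the values for PLK2 and EPHA2 share them.

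With dox, 0 of 30 members differed between the lines in limma, beside 0.0598% of all genes (0.0171% higher and 0.0427% lower). At an unadjusted p under 0.05 there were 4 members, beside 1163 of the 11712 genes. Between the dox groups DDB2 gave 0.25 ± 0.06 (SE), TP53I11 0.23 ± 0.05 (SE), PLK2 -0.23 ± 0.08 (SE) and EPHA2 0.00 ± 0.05 (SE), with adjusted p of 0.170 or more. The untreated calls of DDB2 and TP53I11 ended without any single library of the 6 in sh1-no-dox, sh1-dox and sh2-no-dox (adjusted p = 0.0619 to 0.248 and 0.0586 to 0.229). Those of PLK2 ended without either library of sh1-no-dox (0.156 and 0.0543) or of sh2-no-dox (0.132 and 0.160). All 3 ended with no filter (0.120 or more) and no trend (0.0559 to 0.0948), and those of DDB2 and TP53I11 with quantile normalization (0.0565 and 0.0509) and TMM factors (0.0659 and 0.0676), TP53I11 also with a pseudocount of 0.1 (0.0510). With TMM factors the split turned from 2 higher and 1 lower to 0 higher and 3 lower. Among all genes the share called between the untreated lines went from 1.45% to 0.134% with no filter and 0.572% with no trend. It was also lower without any single library of sh1-no-dox, sh1-dox or sh2-no-dox, and higher without either sh2-dox library.

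Known regulators of p53 were set beside the targets. MDM4, the MDM2 partner that blocks p53 activity, read 11.0 and 10.9 FPKM without dox and 11.6 and 12.9 with dox in the sh1 line, and 11.6 and 11.1 without dox and 11.9 and 12.1 with dox in the sh2 line. Its states just overlapped, with sh1-dox replicate 1 below sh2-no-dox replicate 1, and the log2 difference of 0.11 (95% interval 0.02 to 0.21) had adjusted p = 0.103 and passed without sh1-dox replicate 1 (0.0466). Of 22 regulators 1 rose, the damage kinase ATM (log2 0.18, adjusted p = 0.0402), 1 fell, PPP1R13L (iASPP, an inhibitor of p53; log2 -0.13, adjusted p = 0.0406), and 20 did not pass, so 9.09% were called beside 16.3% of all genes. The median over the 22 was 0.00, and -0.03 with quantile normalization and -0.02 with TMM factors. The ATM call ended without any single library other than sh2-dox replicate 1 (0.0824 to 0.114) and that of PPP1R13L without any other than sh2-dox replicate 2 (0.0557 to 0.141). Both ended with no filter, that of ATM also with quantile normalization (0.0790) and TMM factors (0.0586), and that of PPP1R13L with no trend (0.0701) and no term for the line (0.0936).

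A list of 49 further p53 targets, 48 of them tested, had 10 that rose, 2 that fell and 36 that did not pass, with a median of 0.07 and 35 above 0. That is 25% called, beside 16.3% of all genes, 10.1% higher and 6.2% lower. The number that rose was 6 without sh1-no-dox replicate 1 or sh2-no-dox replicate 1, 6 with no term for the line, and 7 to 12 without any other single library. With no term for the line 9.17% of all genes were called, and leaving out single libraries moved that share too. BBC3, which encodes the death effector PUMA, read 15.2 and 13.9 FPKM without dox and 22.9 and 22.4 with dox in the sh1 line, and 14.9 and 15.5 without dox and 22.2 and 23.6 with dox in the sh2 line. Its states were far apart, and it rose by 53.4%, a log2 change of 0.59 (95% interval 0.50 to 0.68) at adjusted p = 3.80e-05. GDF15, a secreted stress cytokine, read 154 and 179 FPKM without dox and 256 and 275 with dox in the sh1 line, and 150.2 and 193 without dox and 244 and 267 with dox in the sh2 line, and rose by 0.63 at adjusted p = 7.58e-04. SESN2, a leucine sensor that restrains mTORC1, read 9.35 and 11.4 FPKM without dox and 13.9 and 14.2 with dox in the sh1 line, and 9.59 and 9.54 without dox and 11.4 and 13.2 with dox in the sh2 line, and rose by 0.37 at adjusted p = 0.00418. GDF15, SESN2 and BBC3 are also known targets of the amino acid and endoplasmic reticulum stress pathway of ATF4, and ATF4, looked at after its value was known, rose by 18.4% at adjusted p = 0.00365, with means of 267 ± 16.3 without dox and 316 ± 30.7 with dox (FPKM, SD, n = 4 libraries each). Its part in these values was not tested. PGPEP1, CES2 and FAM210B rose by 0.28, 0.22 and 0.24 on the log2 scale. The genes that fell, named after their values were seen, were SFN, the checkpoint protein 14-3-3 sigma (log2 -0.14, adjusted p = 0.0130), and CDIP1, a death inducer (log2 -0.21, adjusted p = 0.0446). The SFN call ended without sh1-no-dox replicate 1 (0.0699), sh1-dox replicate 2 (0.0548) or sh2-no-dox replicate 1 (0.0552), and that of CDIP1 without any single library other than sh2-dox replicate 1 (0.0535 to 0.153), with no filter (0.0964) or with no term for the line (0.0845).

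Of 24 cell cycle genes that p53 represses through p21 and DREAM, 10 fell, none rose and 14 did not pass, beside 6.2% lower and 10.1% higher among all genes, with a median log2 difference of -0.12 and 21 below 0. KIF23, a motor of cytokinesis, and PLK1, the mitotic kinase, fell by 0.18 and 0.13 on the log2 scale, at adjusted p = 0.00864 and 0.0106. The count depended on single libraries: 4 fell without sh1-no-dox replicate 1 or sh1-dox replicate 2, 3 without sh2-no-dox replicate 1, 6 without sh1-no-dox replicate 2, sh2-no-dox replicate 2 or sh2-dox replicate 2, and 15 without sh2-dox replicate 1, with none higher in any of these fits. The share of all genes called in either direction moved with it, between 7.27% and 20.1% over the fits that leave out 1 library. The number of these genes that fell was 5 with no filter on low values or no trend, and 7 with no term for the line. It was 11 with quantile normalization and 13 with TMM factors or a replicate block. The share of all genes called was 5.95% with no filter, 12.8% with no trend and 9.17% with no term for the line. It was 15.7% with quantile normalization, 16.2% with TMM factors and 22.9% with a replicate block. The median over all 11712 genes was 0.02, and 90% of them lay between -0.16 and 0.22.

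**Figure D5:**
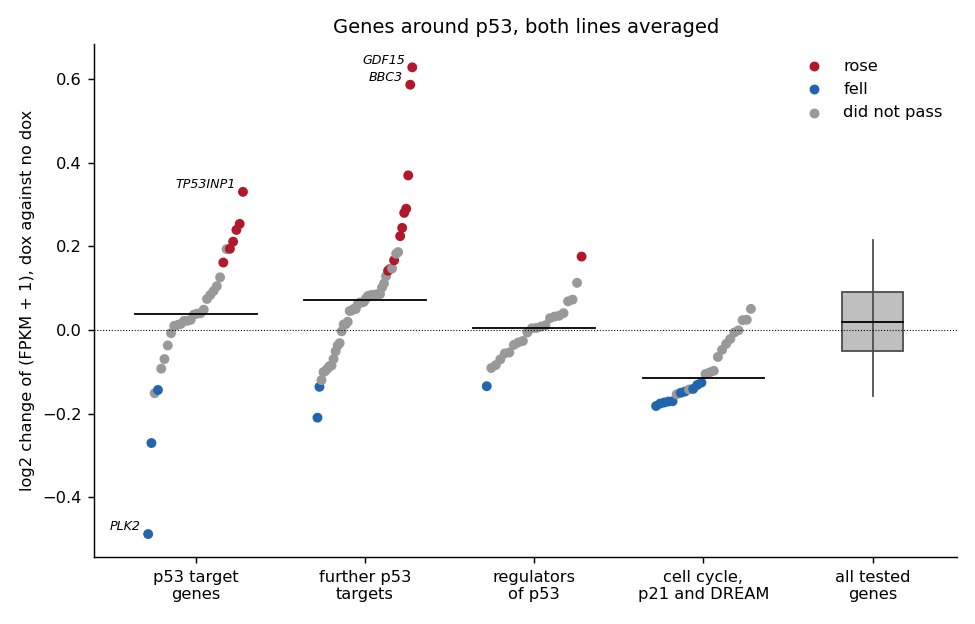
Averaged dox effect on log2(FPKM + 1) for each tested gene of 4 lists (p53 target genes, further p53 targets, regulators of p53, cell cycle genes repressed through p21 and DREAM), with all 11712 genes as a box (25% to 75%) and line (5% to 95%). Points are genes; the medians are 0.04, 0.07, 0.00 and -0.12, and that of all genes is 0.02.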

How the data were processed

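PolyA-selected RNA of 8 HCT116 libraries was reverse transcribed with random primers, per the labels' protocols. The authors deposited FPKM per gene, that is, fragments per length of transcript relative to the mapped fragments of a library. The submitters' processing notes name HISAT, Bowtie2 and genome build hg19 without roles or versions; the quantifier is not given in the sources used here. Since FPKM replaces counts, no count model was used, and depth and counting intervals are unknown. Columns of the table that read sh3 were assigned to the samples labelled sh2, the only hairpin left over, and this match is not proven. The source description reads induced for all 8 samples, while titles put 4 without dox; groups follow the titles.

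Genes averaging at least 1 FPKM (11712 of 17166) were fitted as log2(FPKM + 1) in limma 3.58.1 (R 4.3.3) with a mean for each of the 4 groups (4 residual degrees of freedom), a trended empirical Bayes moderation and two-sided p-values adjusted over all genes by Benjamini-Hochberg, with a threshold of adjusted p under 0.05 and no fold limit. A pseudocount of 1 understates changes of low genes. There were 6 comparisons: dox averaged over lines, dox in sh1, dox in sh2, the contrast between these 2 effects, and the lines compared without and with dox. The script was tested on simulated data. Every member past the threshold in a comparison, CDKN1A, MDM2, HOXB8 and MDM4 in any case, and up to 6 called genes of each pathway list by smallest p were to be named. Some genes of these lists are not reported here. The members, roles, pathway lists and markers were chosen with earlier results of these data known. Gene names come from the table's Entrez identifiers, promoters from RefSeq (GRCh38.p14) and exon overlaps from GENCODE v29, so no coordinates were moved between builds. Motifs were searched with Python 3.11.15 and figures drawn with matplotlib 3.10.9. Alternatives were quantile normalization, TMM factors (trims of 30% and 5%), no filter on low values, a pseudocount of 0.1, no trend, robust moderation, a replicate block, no term for the line, and leaving out each library in turn.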

Additional observations from a re-analysis of the deposited data

How the results depend on the processing

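The number of members past the threshold for dox averaged over lines was 9 and ranged from 7 to 9 when each library was left out, a fit in which the lone library of a group is assumed to vary like the others; it was 10 with TMM factors, 7 with no filter on low values and 12 with a replicate block. For dox in sh1 the number was 5, 3 with TMM factors, no filter or no trend, and 7 with a replicate block. For dox in sh2 it was 2, 1 with quantile normalization, TMM factors or a pseudocount of 0.1, 0 with no filter or no trend and 6 with a replicate block. For the untreated lines it was 3, 1 with quantile normalization, 0 with no filter or no trend and 5 with a replicate block. The difference of dox effects and the induced lines gave 0 members in every alternative run for them; the fit with no term for the line was run for averaged dox only. The share of all genes called moved too. For dox in sh1, dox in sh2 and the untreated lines, both the number of members and that share also moved with a library left out. For dox in sh1 the share was 6.27%, 6.1% with TMM factors, 0.903% with no filter, 3.24% with no trend and 11.6% with a replicate block. For dox in sh2 it was 2.54%, 2.13% with TMM factors, 0.204% with no filter, 0.768% with no trend and 6.3% with a replicate block. For the untreated lines it was 1.45%, 1.14% with quantile normalization, 0.134% with no filter, 0.572% with no trend and 4.31% with a replicate block. Testing all 17166 genes in the unfiltered fit adds low genes to the adjustment. For the other alternatives the cause was not tested. Among all genes the called number for averaged dox was 1906, 1021 with no filter and 1074 with no term for the line. That number fell without any single library other than sh2-dox replicate 1, and rose without that one. The share of called genes that were higher went from 59.1% to 32.2% with TMM factors and 45.8% with quantile normalization for dox in sh1, from 54.5% to 41.4% with TMM factors for dox in sh2, and from 57.1% to 33.0% and 47.0% between the untreated lines. Deviations of same-numbered libraries correlated between -0.027 and 0.215 over the 6 pairs of groups, 4 of them above 0.1; since not all were, the numbers were not taken to pair the libraries. The replicate block moved the calls among all genes from 1906 to 2684 for averaged dox and from 297 to 738 for dox in sh2. Beside the main calls it called TNFRSF10B, BTG2 and AEN for averaged dox, TP53I3 and CYFIP2 in both lines, CDKN1A and TP53INP1 in sh2, and TRIAP1 and EPHA2 between the untreated lines. Over the 39 results whose values were followed through the alternatives, mostly genes called in the main comparison, none of 614 values changed direction, 495 kept their side of the threshold, 118 lost it and 1 (MDM4) gained it; gains of members that had not passed are named above and with their values. Depth is unknown from FPKM, and 2 libraries a group limit the precision. Where a printed interval includes 0, both no difference and a difference of any size inside it remain compatible with the values.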
